A study of Mus musculus with 30 samples.

Results

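The genes described here are 46 genes that carry out mitosis and cytokinesis, taken from a written list of mitotic regulators and structural proteins and matched by symbol. All 46 were found among the 54532 genes of the count table, and all 46 passed the filter on low counts in every comparison, the smallest count of any of them in any library being 97. They fall into 7 role groups: CDK1 with its cyclins and activating phosphatases (6 genes), mitotic kinases with the chromosomal passenger complex (7), the spindle checkpoint (5), anaphase regulators and partners of ubiquitin ligases (6), the kinetochore (7), spindle motors and chromosome structure (8), and cytokinesis (7).

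The cells were murine erythroleukemia (MEL) cells, a virus-transformed erythroid progenitor line that takes on erythroid features when DMSO is added. WT cells were of the DS19 clone, and the labels do not say whether those sequenced carried the control (mCherry) vector the study describes. Abcb10-null cells were a CRISPR/Cas9 clone of that line with a disrupted gene for the mitochondrial inner membrane transporter ABCB10, so a property of that 1 clone cannot be told apart from loss of the gene. Each genotype was sequenced undifferentiated (day 0) and on days 2 and 5 of culture with 1.5% DMSO, with 5 libraries in each of the 6 groups, 30 in all. The libraries were stranded and made from total RNA after depletion of ribosomal and globin RNA.

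Mitosis begins when CDK1 bound to a B- or A-type cyclin is freed of its inhibitory phosphates by CDC25 phosphatases. Kinetochores then attach chromosomes to spindle microtubules while the spindle checkpoint holds back CDC20, the activator of the anaphase-promoting complex (APC/C), a ubiquitin ligase that marks cyclins and securin for destruction and so frees separase. Most of these genes are transcribed in G2 and M phase through a shared promoter element, the cell cycle genes homology region (CHR, bound by LIN54 of the MuvB complex), often beside CCAAT boxes bound by NF-Y. Erythroid cells divide a limited number of times during terminal differentiation and then leave the cell cycle.

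The shared promoter elements can be read in the sequence itself. Of the 46 genes, 39 matched a RefSeq promoter window (250 bases before to 50 after a start, GRCm38.p6), with 43 windows between them. The CHR letters TTTGAA, searched on both strands and so also as TTCAAA, were in 34 of the 43 windows (79.1%), against 17.9% of all 32851 windows of that length. Within 50 bases of the start they were in 32 of the 43 (74.4%), against 4.9% of all windows. CCAAT, or ATTGG on the other strand, was in 32 of 43 windows (74.4%) against 37.4% of all, and the palindromic variant TTCGAA in 4 of 43 (9.3%) against 1.6%. These matches are descriptions of letters in a window, not of bound sites.

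Stretches from these windows are shown for 7 of the genes whose levels differed between the genotypes on day 2 or 5, picked after their values were seen, each on its gene's strand, with every match of the CHR, its palindromic variant and the CCAAT box, in either orientation, in capitals. They lie at chr2:131186848-131186962 (Cdc25b, plus strand), chr7:122159335-122159449 (Plk1, plus), chr15:102296193-102296307 (Espl1, plus), chr17:24251395-24251564 (Ccnf, minus), chr19:38054941-38055055 (Cep55, plus), chr11:40733423-40733537 (Hmmr, minus) and chr9:70421540-70421654 (Ccnb2, minus). Each ends 14 bases after the start.
Cdc25b: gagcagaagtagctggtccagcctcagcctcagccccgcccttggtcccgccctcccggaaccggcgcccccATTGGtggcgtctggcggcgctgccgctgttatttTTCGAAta
Plk1: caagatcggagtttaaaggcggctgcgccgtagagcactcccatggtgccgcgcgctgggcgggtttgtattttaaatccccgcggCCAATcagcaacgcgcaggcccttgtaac
Espl1: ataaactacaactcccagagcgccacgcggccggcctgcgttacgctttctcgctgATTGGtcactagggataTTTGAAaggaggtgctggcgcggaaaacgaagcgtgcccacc
Ccnf: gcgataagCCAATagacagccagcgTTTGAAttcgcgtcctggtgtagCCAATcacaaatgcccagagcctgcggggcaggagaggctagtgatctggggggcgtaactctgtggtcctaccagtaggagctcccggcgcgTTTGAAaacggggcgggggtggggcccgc
Cep55: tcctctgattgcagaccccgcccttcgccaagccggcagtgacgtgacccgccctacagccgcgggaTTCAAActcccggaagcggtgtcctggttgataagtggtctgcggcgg
Hmmr: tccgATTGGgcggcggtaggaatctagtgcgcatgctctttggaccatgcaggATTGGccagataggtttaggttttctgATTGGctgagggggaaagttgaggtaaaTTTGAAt
Ccnb2: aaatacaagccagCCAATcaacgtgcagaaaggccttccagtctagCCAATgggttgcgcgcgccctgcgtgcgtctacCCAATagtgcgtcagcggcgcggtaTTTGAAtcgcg

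Among the genes reduced in Abcb10-null cells, Espl1, Ccnf and Ccnb2 hold TTTGAA beside CCAAT or ATTGG in these stretches, and Cdc25b holds the TTCGAA variant 7 bases after its start with ATTGG before it. Plk1 holds CCAAT in its stretch and TTTGAA 30 bases after the start, outside it. Of the genes raised in Abcb10-null cells, Hmmr holds both elements and Cep55 holds TTCAAA without CCAAT. The elements were thus present in genes that differed in either direction, and in 9 windows TTTGAA was absent.

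The libraries held 9906783 to 20157768 counted reads, with a median of 16492116.5. Abcb10 itself averaged 119, 566 and 1221 CPM (read counts scaled to library size by TMM over the 30 libraries) in WT cells on days 0, 2 and 5, and 74.2, 202 and 212 CPM in Abcb10-null cells, with no overlap between genotypes on any day. All 8 erythroid markers (among them Gata1, Klf1 and Alas2) were detected in every group. Their summed level was 1942 to 2282 CPM on day 0, 9756 to 21407 CPM in WT and 4743 to 6055 CPM in Abcb10-null libraries on day 5. Summed markers of mast cells, macrophages, T cells, B cells and fibroblasts reached at most 12.7 CPM, those of neutrophils at most 16.6 CPM, and those of megakaryocytes (a list with Itga2b and Pf4) 154 to 603 CPM. Replicates 2 and 5 of Abcb10-null day 2 stood apart: their summed erythroid markers were 1980 and 2045 CPM, against 2823 to 2998 CPM in the other 3, and the mean log2 CPM of the 46 genes was 7.48 and 7.43, against 7.19 to 7.26.

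Libraries also differed in how the level of a gene depended on the GC content of its exons. The slope, as log2 CPM per 10 percentage points of GC, had day 2 medians of 0.29 in WT and −0.20 in Abcb10-null libraries. The medians, WT first, were 0.20 and 0.01 on day 0 and −0.19 and −0.14 on day 5. On day 2 the same Abcb10-null replicates 2 and 5 had slopes near 0. WT day 2 replicate 3 was also near 0 (0.03), whereas WT day 2 replicates 1, 2, 4 and 5 had slopes from 0.20 up to 0.32. Among WT day 2 libraries, replicate 3 had the lowest Plk1, Espl1 and Ccnf levels, but not the lowest Cdc25b level. The 46 genes ranged from 40.6% to 56.1% GC, and the genes most reduced on day 2 were among the richest: Plk1 (56.1%), Espl1 (55.4%), Incenp (54.6%), Cdc25b (54.2%) and Ccnf (52.5%). Across the 46 genes the correlation of log2 fold change (Abcb10-null against WT) with GC was −0.62, −0.57 and −0.36 on days 0, 2 and 5. Across all protein-coding genes with a GC value and a mean of at least 5 CPM it was −0.18, −0.35 and 0.00. All these genes share the same libraries, so the correlations are descriptions. The fits were therefore repeated with GC corrected in each library, a step added after seeing the data. Calls of the 46 genes that did not hold in it are named with their comparisons.

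The summed level of the 46 genes averaged 10951, 12271 and 11990 CPM in WT libraries on days 0, 2 and 5. In Abcb10-null libraries it averaged 11692, 11684 and 12622 CPM. These CPM were scaled by TMM, so the sums are not shares of all reads. On this scale their summed level was no lower after 5 days of DMSO than before it in either genotype. Per kilobase of exon, Top2a, the topoisomerase that untangles sister chromatids, was the most abundant (mean over the 30 libraries 238 CPM per kb), followed by Ccna2 (150), Ccnb2 (124) and Cdc20 (98.4). Espl1 (5.1), Ccnf (8.1) and Plk1 (8.7) were the lowest on the same scale. In bulk RNA, fewer dividing cells and less RNA per dividing cell cannot be told apart.

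The genotypes were compared to ask which mitotic genes changed when ABCB10 was missing, before and during differentiation. On day 0 the differences were small and went both ways: 12 genes were higher and 9 lower in Abcb10-null cells, the largest being −0.60 on the log2 scale. On day 2 most of the differences were reductions: 14 genes were lower and 3 higher, and Cdc25b, Plk1, Espl1 and Ccnf were lower by more than 1 on the log2 scale. On day 5, 10 genes were higher and 11 lower, with Cep55 the most raised and Cdc25b the most reduced. Of the 46, 33 were called on at least 1 day and 13 on none, and the matching share over all genes is not given here.

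Calls were made with edgeR's quasi-likelihood test at a Benjamini-Hochberg adjusted p under 0.05 over all genes tested. The 21 genes called on day 0 were 45.7% of the 46, against 36.0% of all 12912 genes tested (19.7% higher and 16.2% lower). The 17 called on day 2 were 37.0%, against 31.8% of 13053 genes. The 21 called on day 5 were 45.7%, against 37.6% of 12676 (19.8% higher and 17.8% lower). The share of these genes that was called lay near that of genes in general. By direction on day 2, 3 of the 46 were higher and 14 lower, beside 14.9% higher and 16.9% lower over all genes. The median log2 fold change of the 46 was 0.02, −0.18 and 0.10 on the 3 days, against medians within 0.02 of 0 over all genes.

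**Figure D1:**
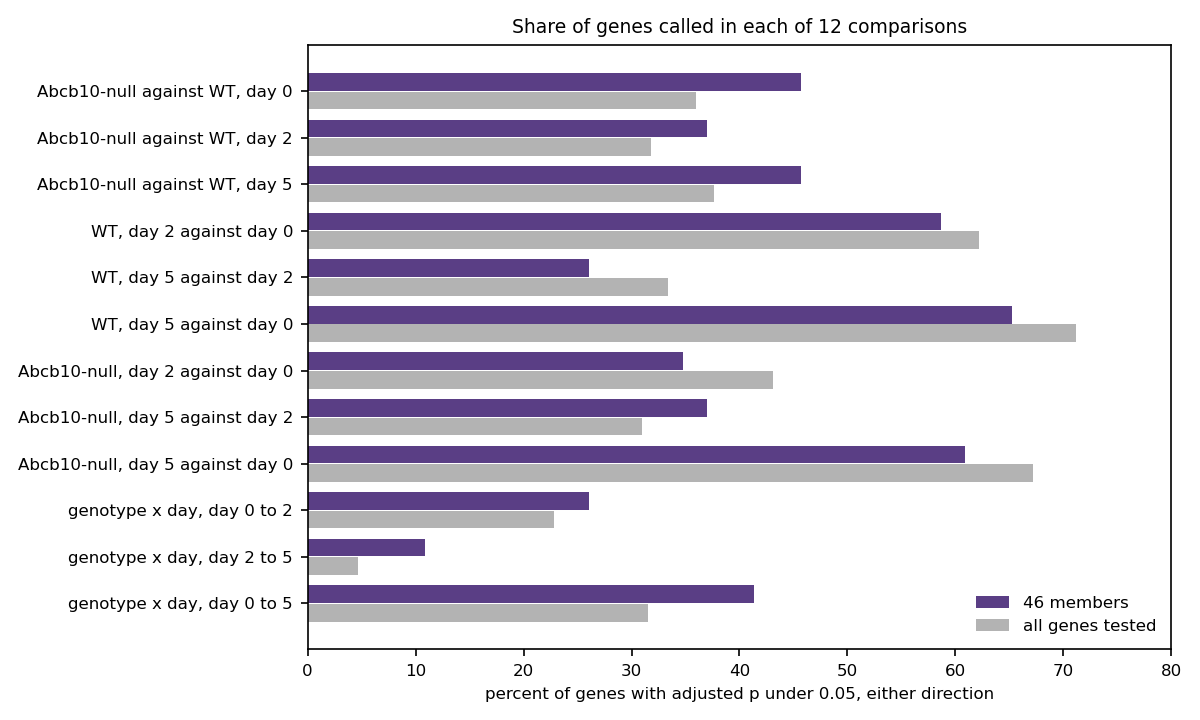
Percent of genes called in each of the 12 comparisons, for the 46 mitosis and cytokinesis genes and for all genes tested. The 2 shares lie near each other in most comparisons, for example 37.0% and 31.8% for Abcb10-null against WT on day 2.

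The libraries of the 2 genotypes did not overlap for 11 of the 46 genes on day 0 (9 above and 2 below), 10 on day 2 (3 above and 7 below) and 13 on day 5 (5 above and 8 below). Over all genes tested the libraries did not overlap for 22.9%, 16.1% and 23.9%. When each library was left out in turn, 14 of the 21 day 0 calls, 8 of the 17 day 2 calls and 15 of the 21 day 5 calls held in every fit. The day 2 count fell to 9 without Abcb10-null replicate 1, 10 without Abcb10-null replicate 4 and 11 without WT replicate 2. With GC corrected, 16, 13 and 19 of the calls held. A single fit of all 30 libraries called 6 genes on day 0 (5 higher and 1 lower), and testing every gene with at least 1 count called 13 on day 5 (4 higher and 9 lower). Leaving out both Abcb10-null day 2 replicates that stood apart gave 24 calls on day 2 (4 higher and 20 lower).

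**Figure D2:**
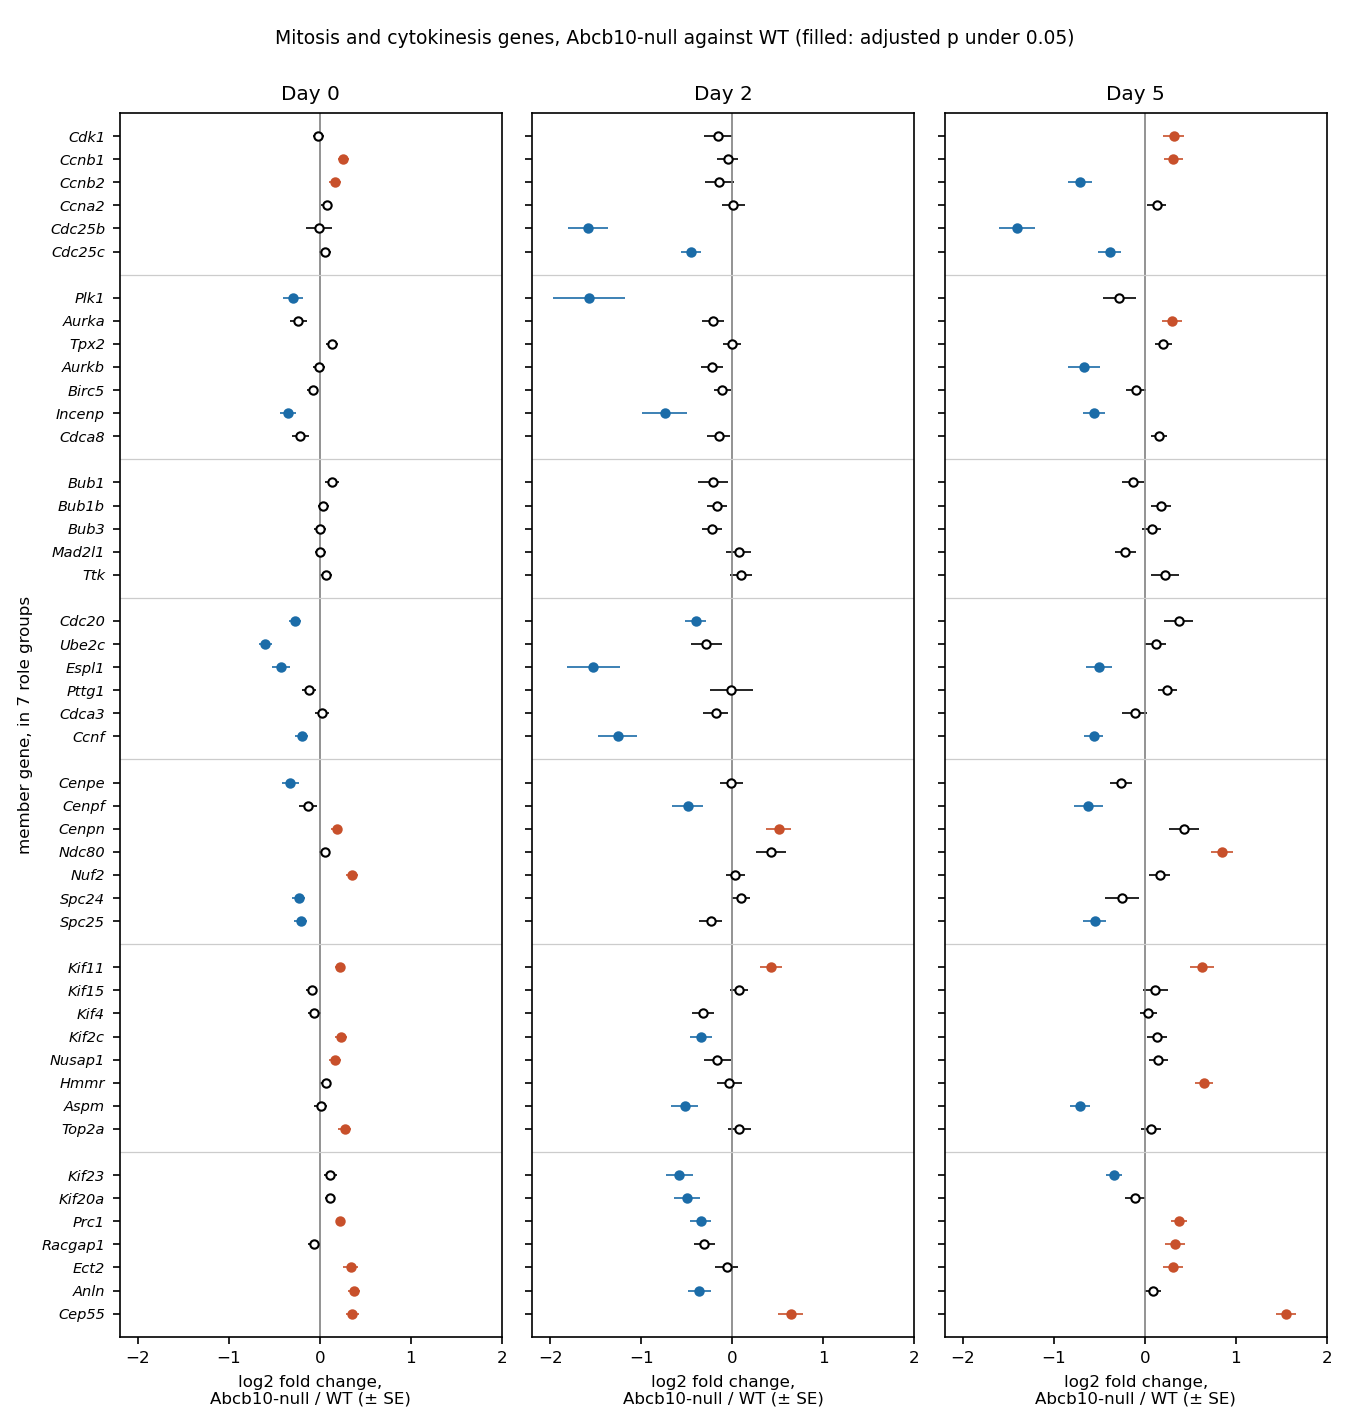
Log2 fold change (Abcb10-null against WT) of each of the 46 genes on days 0, 2 and 5, with bars of ±1 standard error derived from edgeR's F statistic and filled symbols where the adjusted p was under 0.05. Red is higher and blue lower in Abcb10-null cells; the largest values are −1.58 for Cdc25b and Plk1 on day 2 and 1.56 for Cep55 on day 5.

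CDK1 and its activators split. Cdc25b (ENSMUSG00000027330), which encodes the phosphatase that first activates CDK1 at the centrosome, was not called on day 0, at 13.2 ± 2.70 CPM in WT and 13.2 ± 2.23 in Abcb10-null libraries (SD, n = 5; log2 fold change −0.01, adjusted p = 0.972). On day 2 its 5 WT libraries had 81.5, 78.8, 47.0, 45.1 and 61.7 CPM and its 5 Abcb10-null libraries 16.1, 27.6, 18.9, 18.6 and 27.4. The ranges of the genotypes were wholly apart, a 3.00-fold reduction (log2 −1.58, SE 0.221, adjusted p = 0.00107). On day 5 the WT libraries held 87.5, 131, 76.2, 92.9 and 90.4 CPM against 49.4, 39.9, 37.9, 31.2 and 22.9, again with no overlap (log2 −1.41, SE 0.197, adjusted p = 0.000177). With GC corrected both differences held, at −1.42 and −1.45.

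Cdc25c, the second CDC25 phosphatase of mitotic entry, was not called on day 0 and was lower on day 2, at 77.5 ± 7.09 CPM in WT and 58.6 ± 4.97 in Abcb10-null libraries (log2 −0.45, adjusted p = 0.00976), with no overlap. It was lower on day 5 too (−0.39, adjusted p = 0.0292), where the libraries overlapped. Ccnb2, a B-type cyclin, reached 234, 172, 201, 205 and 216 CPM in WT and 131, 152, 143, 103 and 103 in Abcb10-null libraries on day 5. All Abcb10-null values were below all WT values (log2 −0.71, SE 0.129, adjusted p = 0.00102), whereas on day 0 Ccnb2 had been slightly higher in Abcb10-null libraries (0.17, adjusted p = 0.0417), a call kept in 3 of 10 fits with a library left out.

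Ccnb1, the other B-type cyclin, moved the opposite way on day 5. Its WT libraries had 385, 281, 332, 337 and 334 CPM and its Abcb10-null libraries 440.1, 427, 428, 359 and 430.5, so that the shallowest Abcb10-null library alone fell within the WT range (log2 0.31, SE 0.103, adjusted p = 0.0297, kept in 3 of 10 fits with a library left out). It was also higher on day 0 (0.26, adjusted p = 0.00239) without overlap, and on day 2 its means were 336 and 335 CPM. Cdk1, the kinase itself, had 301, 192, 254, 243 and 248 CPM in WT and 319.5, 303, 299, 285 and 343 in Abcb10-null libraries on day 5. Its groups overlapped at 1 WT library (log2 0.32, adjusted p = 0.0417), and the call held in 3 of 10 fits with a library left out and not with GC corrected (0.28). Ccna2, the A-type cyclin, was called on no day, with log2 fold changes of 0.08, 0.01 and 0.13.

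The mitotic kinases and the chromosomal passenger complex showed reductions in 2 of 7 genes on each day. Over all genes, 16.2%, 16.9% and 17.8% were lower on days 0, 2 and 5. Plk1 (ENSMUSG00000030867), the polo-like kinase that acts from mitotic entry to cytokinesis, had 50.4, 44.6, 20.7, 28.5 and 33.9 CPM in WT and 8.11, 27.5, 7.17, 5.89 and 12.7 in Abcb10-null libraries on day 2. Abcb10-null replicate 2, one of the libraries that stood apart, reached into the WT range and the other 4 lay below it. The reduction was 2.99-fold (log2 −1.58, SE 0.397, adjusted p = 0.0113) and held in all 10 fits with a library left out and with GC corrected (−1.33). Without Abcb10-null replicates 2 and 5 it was −2.39. On day 5 Plk1 had means of 16.7 ± 3.2 and 13.9 ± 3.00 CPM (−0.28, adjusted p = 0.253), and its day 0 difference (−0.29, adjusted p = 0.044) was lost with GC corrected (−0.23).

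Incenp, the scaffold of the passenger complex, was lower on all 3 days. On day 5 it had 93.8, 93.1, 90.6, 85.5 and 79.4 CPM in WT and 64.3, 55.1, 46.3, 70.3 and 67.2 in Abcb10-null libraries, with no overlap (log2 −0.56, SE 0.123, adjusted p = 0.00364). The day 0 difference was −0.35 (adjusted p = 0.00604) and that on day 2 −0.74 (adjusted p = 0.0366). The day 2 call held in 4 of 10 fits with a library left out and not with GC corrected (−0.56). Aurkb, the catalytic kinase of the complex, was lower on day 5, at 73.8 ± 11.1 CPM in WT and 46.6 ± 12.8 in Abcb10-null libraries (−0.67, adjusted p = 0.0104), with a small overlap.

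Aurka, the spindle pole kinase, was the 1 gene of the group called higher, on day 5, with 113, 99.5, 119, 117 and 110.4 CPM in WT and 114, 159, 156, 132 and 129 in Abcb10-null libraries (log2 0.30, adjusted p = 0.0491). At least 1 Abcb10-null library lay within the WT range, and the call held in 1 of 10 fits with a library left out and not with GC corrected. Tpx2, the activator of Aurora A, was among the steadiest genes on day 2, at 273 ± 12.8 and 282 ± 21.4 CPM (log2 0.00, adjusted p = 0.998). Cdca8 (borealin) and Birc5 (survivin), both passenger proteins, were called on no day, with log2 fold changes from −0.21 to 0.15 and from −0.11 to −0.08.

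None of the 5 spindle checkpoint genes was called between the genotypes on any day by edgeR. None had an unadjusted p under 0.05, and none was called by DESeq2. Of all genes, edgeR called 36.0%, 31.8% and 37.6% on days 0, 2 and 5, and this small group was not tested against those shares. Bub1b, which encodes BUBR1 of the mitotic checkpoint complex, had means of 489 ± 21.5 and 506 ± 30.9 CPM on day 0, 382 ± 29.1 and 351 ± 31.9 on day 2, and 259 ± 34.1 and 295 ± 29.1 on day 5 (WT first). Bub3, its binding partner, had 378 ± 29.5 and 379.6 ± 22 CPM on day 0 (log2 0.00, adjusted p = 0.994) and 278 ± 29.2 and 294 ± 25.7 on day 5 (0.07, adjusted p = 0.591). Bub1, the kinetochore checkpoint kinase, ranged over log2 fold changes of 0.14, −0.22 and −0.13. Mad2l1 and Ttk, the MAD2 protein and the MPS1 kinase, ranged from −0.21 to 0.22.

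Among anaphase regulators the called differences were all reductions: 4 of 6 genes on day 0, 3 on day 2 and 2 on day 5. The shares of all genes called lower were 16.2%, 16.9% and 17.8%. Whether so small a group differs from genes in general was not tested. Espl1 (ENSMUSG00000058290), which encodes separase, the protease that cleaves cohesin, had 109.9, 119, 52.1, 75.7 and 72.8 CPM in WT and 19.99, 50.4, 22.3, 23.1 and 37.9 in Abcb10-null libraries on day 2. The highest Abcb10-null value was just under the lowest WT value (log2 −1.53, SE 0.291, adjusted p = 0.00419). On day 5 the WT libraries spanned 29.9 to 45.6 CPM and the Abcb10-null libraries 22.5 to 29.3, again without overlap (−0.50, adjusted p = 0.0152), and on day 0 the difference was −0.43 (adjusted p = 0.00292). All 3 calls held with GC corrected, at −0.37, −1.31 and −0.53.

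Ccnf, which encodes cyclin F, the substrate receptor of an SCF ubiquitin ligase in G2, followed the same course. On day 2 it had 112, 103, 72.3, 94.4 and 91.5 CPM in WT and 28.1, 61.1, 32.0, 33.4 and 49.7 in Abcb10-null libraries, with no overlap (log2 −1.26, SE 0.215, adjusted p = 0.00293). On day 5 it was −0.56 (adjusted p = 0.00125), also without overlap, and on day 0 −0.20 (adjusted p = 0.0388). The day 0 call held in 4 of 10 fits with a library left out and was lost with GC corrected.

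Ube2c, the APC/C's ubiquitin-conjugating enzyme, gave the largest difference of day 0. Its WT libraries had 116, 125, 117, 103 and 115 CPM and its Abcb10-null libraries 84.8, 73.0, 76.9, 74.0 and 73.6, with no overlap (log2 −0.60, SE 0.0685, adjusted p = 1.94e-06). By day 5 its means were 114 ± 18.6 and 125 ± 10.9 CPM (0.12, adjusted p = 0.426). Of the exon bases of Ube2c, 22.8% overlap Tnnc2 on the other strand, and the strand setting of the counting was not given, so reads of these genes may not be separated.

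Cdc20 was lower on day 0 (225 ± 6.29 and 187 ± 15.1 CPM, log2 −0.27, adjusted p = 0.00279) and on day 2 (186 ± 11.4 and 145 ± 17.1, −0.40, adjusted p = 0.0172), in both cases without overlap. The day 2 call was lost with GC corrected (−0.21). On day 5 its means were 156 ± 38.0 and 203 ± 31.9 CPM (0.37, adjusted p = 0.0762). Pttg1, which encodes securin, the inhibitor of separase, and Cdca3, a partner of an SCF ligase, were called on no day. Pttg1 was nearly level on day 2 (log2 −0.01, adjusted p = 0.981) while spreading from 53.7 to 119 CPM within WT and from 69.0 to 128 within Abcb10-null libraries. Cdca3 had log2 fold changes of 0.03, −0.18 and −0.11.

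**Figure D3:**
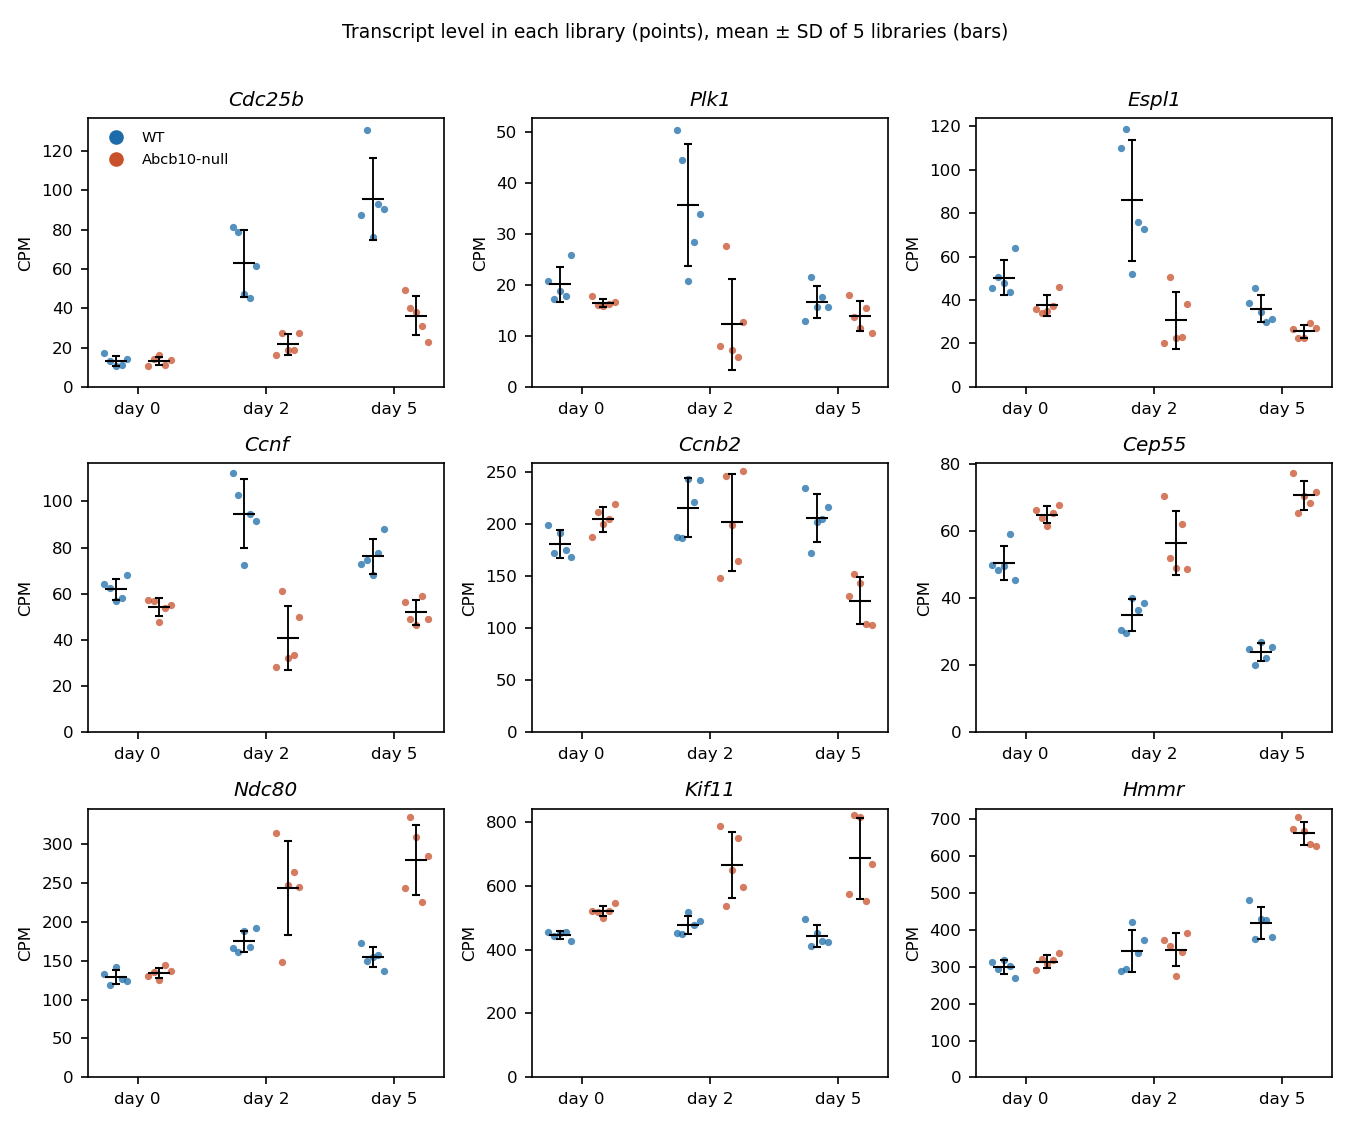
CPM of 9 genes in each of the 30 libraries by genotype and day, with the mean and SD of 5 libraries. WT and Abcb10-null points separate on days 2 and 5 for Cdc25b, Espl1 and Ccnf, and on all 3 days for Cep55 and Kif11. They separate on day 5 for Ndc80, Hmmr and Ccnb2, and overlap at 1 library for Plk1 on day 2.

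Kinetochore genes went in both directions within the same complex. Ndc80, the microtubule-binding subunit of the NDC80 complex, was level on day 0 (129 ± 9.05 and 134 ± 6.80 CPM) and had 173, 149.98, 155, 157 and 137 CPM in WT and 243, 334, 308, 226 and 284 in Abcb10-null libraries on day 5. All Abcb10-null values exceeded all WT values (log2 0.85, SE 0.122, adjusted p = 0.000216). Its day 2 difference of 0.43 missed the threshold (adjusted p = 0.0572) in all libraries and was 0.60 (adjusted p = 0.00118) without Abcb10-null replicates 2 and 5. Spc25, another subunit of that complex, was lower on day 5, at 90.8 ± 12.1 and 62.4 ± 8.46 CPM (−0.55, adjusted p = 0.00455), without overlap.

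Nuf2, the dimer partner of Ndc80, was higher on day 0 (127 ± 8.74 and 163 ± 6.03 CPM, log2 0.36, adjusted p = 0.000179), with no overlap, and had log2 fold changes of 0.03 and 0.16 on days 2 and 5. Spc24, the partner of Spc25, had 264, 261, 235, 219 and 223 CPM in WT and 192, 196, 222, 212 and 205 in Abcb10-null libraries on day 0 (−0.23, adjusted p = 0.0101), the groups overlapping slightly. Spc25 was also lower on day 0 (−0.21, adjusted p = 0.0219).

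Cenpf, a large corona protein, was lower on day 5 (657 ± 146 and 431 ± 55.8 CPM, log2 −0.62, adjusted p = 0.0077), with 1 Abcb10-null library above the lowest WT one. Its day 2 difference (−0.49, adjusted p = 0.042) held in 2 of 10 fits with a library left out. Cenpe, the kinetochore kinesin, had 222, 223, 239, 216 and 237 CPM in WT and 197, 186, 132, 182 and 217 in Abcb10-null libraries on day 0 (−0.32, adjusted p = 0.0114), overlapping at 1 library, and was level on day 2 (−0.01, adjusted p = 0.959). Cenpn, which reads the CENP-A nucleosome, was higher on day 2, with 56.5 to 65.1 CPM in WT and 69.0 to 112 in Abcb10-null libraries (0.51, adjusted p = 0.0144), and on day 0 (0.19, adjusted p = 0.0311), without overlap on either day. The day 0 call was lost with GC corrected (0.16).

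Of the spindle motors, Kif11 (Eg5), the tetrameric kinesin that separates spindle poles, was higher on all 3 days without overlap on any. Its means were 445 ± 12.2 and 521 ± 16.7 CPM on day 0 (log2 0.22, adjusted p = 0.00248). On day 2 its WT libraries spanned 449 to 519 CPM and its Abcb10-null libraries 537 to 787 (0.43, adjusted p = 0.0197). On day 5 they spanned 410.3 to 496 and 553 to 820.0 (0.63, SE 0.131, adjusted p = 0.00249). With GC corrected the day 5 difference held (0.66), while those of day 0 (0.11) and day 2 (0.23) were no longer called.

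Hmmr, a microtubule-binding protein of the spindle, was level on days 0 and 2 (0.07 and −0.03) and higher on day 5, with 480.0, 376, 429.9, 426 and 381 CPM in WT and 673, 707, 667, 634 and 628 in Abcb10-null libraries. The groups lay well apart (log2 0.65, SE 0.0993, adjusted p = 0.00032). Aspm, a spindle pole protein, went the other way, from 262 ± 21.2 and 266 ± 29.4 CPM on day 0 to 618, 638, 567, 606 and 554 in WT and 452, 355, 340.2, 345 and 337 in Abcb10-null libraries on day 5. It did not overlap on day 5 (−0.72, SE 0.108, adjusted p = 0.000307) or on day 2 (−0.52, adjusted p = 0.0175).

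Top2a was higher on day 0 (1758 ± 104 and 2136 ± 214 CPM, log2 0.27, adjusted p = 0.00387) without overlap, and nearly level on day 5 (2135 ± 169.6 and 2251 ± 198, 0.07, adjusted p = 0.642). Kif2c, the microtubule-depolymerizing kinesin MCAK, was higher on day 0 (0.23, adjusted p = 0.011) and lower on day 2 (−0.34, adjusted p = 0.0393). Its day 2 call held in 2 of 10 fits with a library left out and not with GC corrected (−0.32). Nusap1, a microtubule bundler, was higher on day 0 (0.17, adjusted p = 0.0456), a call also lost with GC corrected. Kif15 and Kif4, a spindle and a chromosome-arm kinesin, were called on no day, and Kif4 had the smallest difference of day 5 (451 ± 39.0 and 466 ± 25 CPM, 0.04).

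Of the 7 cytokinesis genes, 4 were called higher on day 0, 4 lower and 1 higher on day 2, and 4 higher and 1 lower on day 5. Beside these counts, 19.7% of all genes were higher on day 0. The shares were 14.9% higher and 16.9% lower on day 2, and 19.8% higher and 17.8% lower on day 5. The members called differed by day, and Anln and Prc1 were called in opposite directions on different days. Cep55 (ENSMUSG00000024989), which recruits the abscission machinery to the midbody, was higher on all 3 days without overlap. On day 0 it had 49.8, 48.4, 49.5, 59.1 and 45.2 CPM in WT and 66.3, 63.7, 61.4, 65.2 and 67.7 in Abcb10-null libraries (log2 0.36, adjusted p = 0.000937). On day 2 the means were 35.0 ± 4.74 and 56.4 ± 9.47 CPM (0.64, SE 0.138, adjusted p = 0.00621). On day 5 the WT libraries had 24.7, 20.1, 26.9, 22.2 and 25.3 CPM and the Abcb10-null libraries 77.2, 65.3, 70.4, 68.2 and 71.6.

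The day 5 difference of Cep55 was 2.94-fold (log2 1.56, SE 0.109, adjusted p = 1.71e-06), the largest increase among the 46 genes on any day. A difference of 0.36 was already present on day 0. From day 0 to day 5 Cep55 fell in WT libraries (−1.08), and its Abcb10-null means were 64.9 ± 2.41 and 70.5 ± 4.45 CPM on the same days. With GC corrected the differences were 0.27, 0.46 and 1.55 and remained called.

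Anln (anillin), the scaffold of the contractile ring, had 433, 435, 475, 501 and 464 CPM in WT and 621, 613, 551, 573 and 657 in Abcb10-null libraries on day 0, with no overlap (log2 0.38, SE 0.0622, adjusted p = 0.000119). On day 2 its means were 659.8 ± 36.4 and 531 ± 82.7 CPM (−0.36, adjusted p = 0.0474), a call kept in 2 of 10 fits with a library left out. On day 5 it was level (0.09, adjusted p = 0.442). Prc1, which bundles microtubules of the central spindle, was 0.23 (adjusted p = 0.00273) on day 0, −0.35 (adjusted p = 0.032) on day 2 and 0.38 (adjusted p = 0.00464) on day 5, with no overlap on days 0 and 5.

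Racgap1 and Ect2, the centralspindlin GTPase-activating protein and the RhoA exchange factor that it recruits, were higher on day 5. Racgap1 had 232, 221, 221, 231 and 325 CPM in WT and 309.7, 321, 319, 297 and 307 in Abcb10-null libraries, so that WT replicate 5 alone lay above the Abcb10-null range (log2 0.33, adjusted p = 0.0311). Ect2 had 107 to 127 CPM in WT and 115 to 160.4 in Abcb10-null libraries (0.31, adjusted p = 0.0384). Both calls held in 2 of 10 fits with a library left out, and Ect2 was also higher on day 0 (0.34, adjusted p = 0.00299).

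Kif23 (MKLP1), the motor of centralspindlin, was lower on day 2 (141 ± 8.06 and 97.6 ± 21.3 CPM, log2 −0.58, adjusted p = 0.0121) and on day 5 (163 ± 8.36 and 129.6 ± 9.74, −0.34, adjusted p = 0.0104), both without overlap. Kif20a (MKLP2), which moves the passenger complex to the midzone, had 260.2, 261, 310.1, 313 and 289 CPM in WT and 177, 274, 203, 166 and 226 in Abcb10-null libraries on day 2, overlapping at Abcb10-null replicate 2 (−0.50, adjusted p = 0.02). Its exons overlap Cdc23 on the other strand over 29.3% of their length, and the same caution as for Ube2c applies.

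Within WT cells, the time course asked how these genes move during DMSO differentiation. From day 0 to day 2, 20 of the 46 rose and 7 fell, led by Cdc25b, which rose from 13.2 ± 2.70 to 62.8 ± 17.1 CPM (log2 2.24, SE 0.19, adjusted p = 6.46e-07). The 27 called genes were 58.7% of the 46, against 62.2% of all genes tested (31.5% higher and 30.7% lower). Cenpf (0.91), Cdc25c (0.87), Plk1 (0.82), Espl1 (0.76), Aspm (0.66) and Ccnf (0.61) rose next, and Cep55 (−0.53) and Kif20a (−0.47) fell most. The call of Aurka (−0.25) was lost with GC corrected (−0.18).

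From day 2 to day 5, 12 WT genes were called (4 higher and 8 lower), 26.1% of the 46 against 33.4% of all genes. Espl1 (−1.25, adjusted p = 0.00063) and Plk1 (−1.09, adjusted p = 0.00237) fell most, so both peaked on day 2. In WT cells 5 days after DMSO, 16 of the 46 genes were above day 0 and 14 below, 65.2% called against 71.2% of all genes (36.5% higher and 34.7% lower). With GC corrected that split was 13 higher and 17 lower, and that from day 2 to 5 was 2 higher and 12 lower. The calls lost in that fit were Nusap1, Ect2, Kif2c and Spc24 from day 2 to 5, and Spc25, Top2a, Ndc80, Ect2, Anln and Espl1 from day 0 to 5.

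The largest day 5 changes in WT were Cdc25b (log2 2.85, adjusted p = 1.19e-08), Cenpf (1.25), Aspm (1.18), Cdc25c (1.06) and Nusap1 (0.95) above day 0, and Cep55 (−1.08), Bub1b (−0.92), Spc24 (−0.77), Kif20a (−0.69) and Cdk1 (−0.68) below it.

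In Abcb10-null cells, from day 0 to day 2, 8 genes rose and 8 fell, 34.8% called against 43.1% of all genes, and without replicates 2 and 5 of day 2 the count was 29 (11 higher and 18 lower). The split was 8 higher and 13 lower with GC corrected and 8 higher and 12 lower with DESeq2. The calls of Spc25, Cdc20, Kif11 and Cdca3 were lost with GC corrected. Kif20a fell most (−1.01, adjusted p = 5.92e-05), and Ndc80 (0.88), Cenpe (0.85) and Cdc25b (0.75) rose most. Plk1 had means of 16.5 ± 0.781 CPM on day 0 and 12.3 ± 8.91 on day 2, the latter spread over 5.89 to 27.5 CPM.

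From day 2 to day 5, 11 Abcb10-null genes rose and 6 fell, 37.0% called against 31.0% of all genes. Hmmr (0.93), Prc1 (0.81) and Nusap1 (0.70) rose, and Aurkb (−0.96) and Spc24 (−0.91) fell. This count was 10 without Abcb10-null day 2 replicate 4, day 5 replicate 1 or day 5 replicate 5. Against day 0, day 5 had 16 genes higher and 12 lower, 60.9% called against 67.2% of all genes. Cdc25b (1.47), Hmmr (1.08) and Ndc80 (1.06) led the increases, and Aurkb (−1.11), Kif20a (−0.90) and Spc24 (−0.78) the decreases. All 28 of these calls held in each fit with a library left out, and that of Ect2 (0.31) was lost with GC corrected (0.14).

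**Figure D4:**
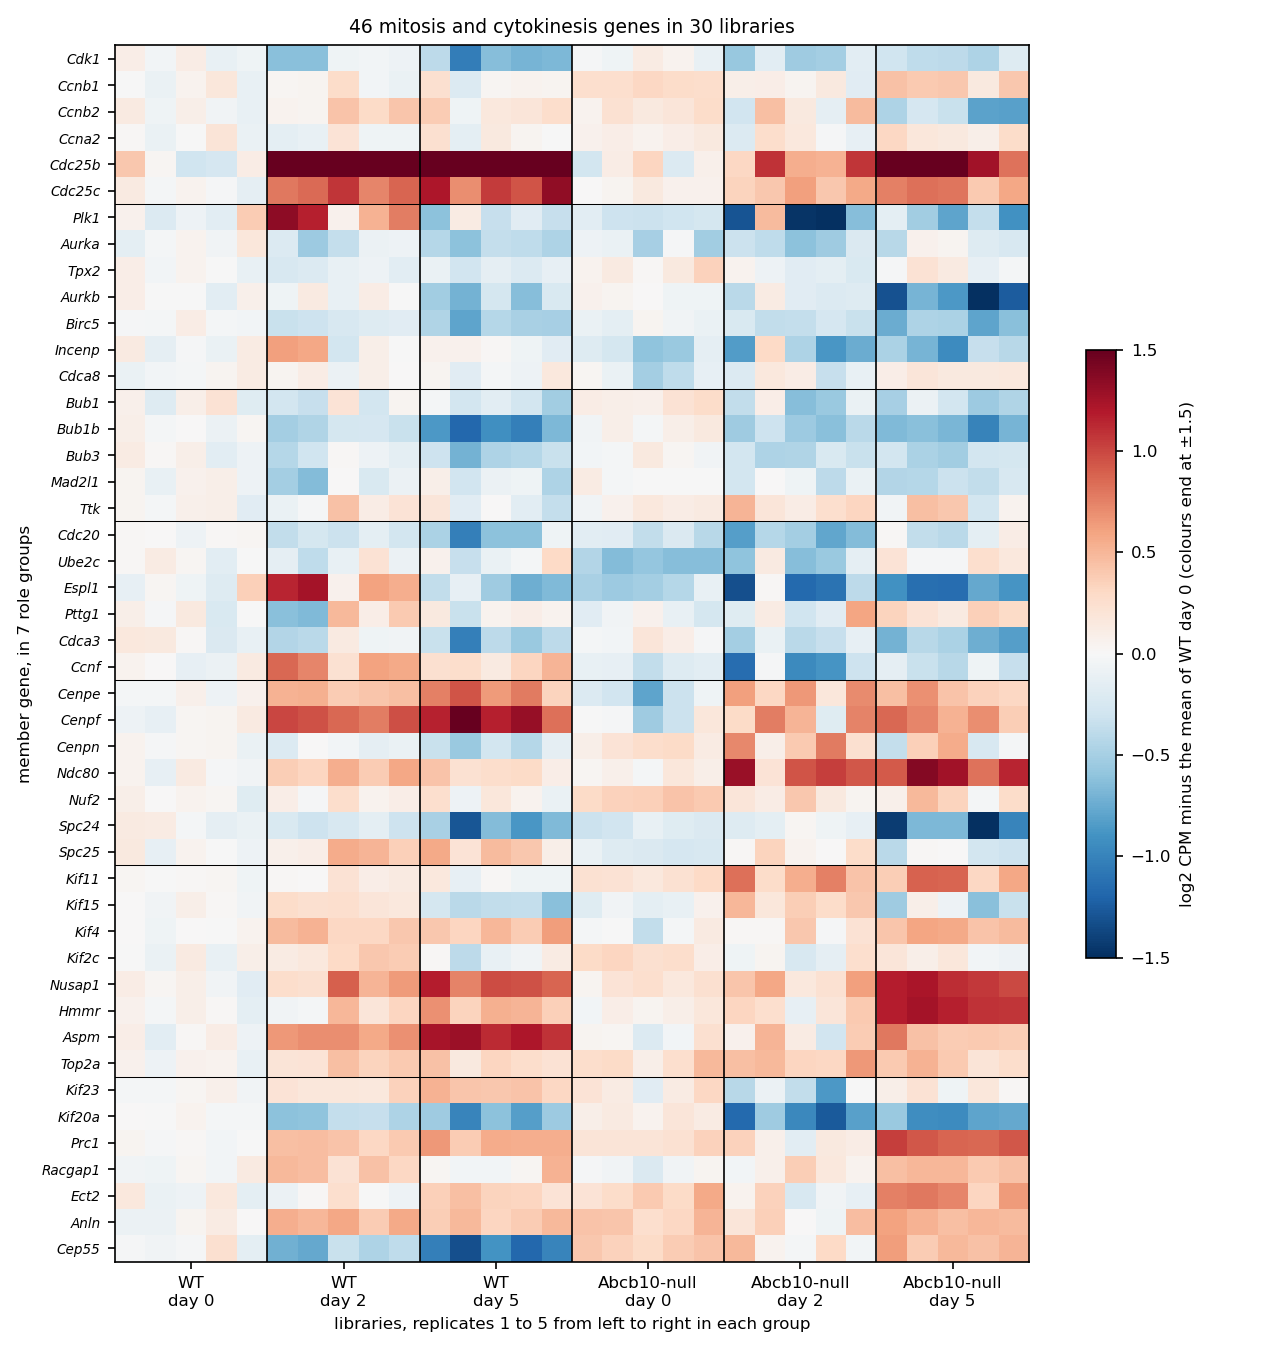
Log2 CPM of the 46 genes in the 30 libraries minus the gene's mean over WT day 0 libraries, by role group (colours end at ±1.5). Cdc25b is raised in all WT libraries of days 2 and 5, Cep55 is most reduced in WT day 5 libraries, and Abcb10-null day 2 replicates 2 and 5 are less reduced in Plk1, Espl1 and Ccnf than the other 3.

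Between day 0 and day 5, 11 of the 46 were higher in both genotypes, 9 lower in both, 8 called in neither, and none was called in opposite directions. Of the rest, 10 were called in WT alone and 8 in Abcb10-null cells alone. The matching tally over all genes is not given here, but 71.2% of all genes were called in WT and 67.2% in Abcb10-null cells. Being called in 1 genotype and not in the other does not show a difference, so the change itself was tested by an interaction of genotype and day.

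From day 0 to day 2, 12 of the 46 changed differently in the 2 genotypes (26.1%, against 22.8% of all 13980 genes). The change was lower in Abcb10-null cells for 11 of them and higher for 1. Cdc25b led (interaction log2 −1.52, SE 0.268, adjusted p = 0.000837), and Plk1 (−1.23, adjusted p = 0.0408), Espl1 (−1.04, adjusted p = 0.0221) and Ccnf (−1.01, adjusted p = 0.0042) followed. The Plk1 interaction was kept in 8 of 20 fits with a library left out. Cytokinesis genes made up 4 of the 11: Anln (−0.69), Kif23 (−0.65), Kif20a (−0.56) and Prc1 (−0.52). All 12 held with GC corrected, and without Abcb10-null day 2 replicates 2 and 5 there were 24 (5 higher and 19 lower).

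From day 2 to day 5 the interaction was called for 5 genes (10.9%, against 4.71% of all genes, 1.77% in that direction). In all of them the change was relatively higher in Abcb10-null cells: Cep55 (0.87, adjusted p = 0.0117), Cdc20 (0.72, adjusted p = 0.0435), Prc1 (0.68, adjusted p = 0.011), Hmmr (0.64, adjusted p = 0.0435) and Racgap1 (0.59, adjusted p = 0.0381). Over these days Cep55 fell in WT cells (−0.55), and its Abcb10-null change (0.32) was not called. In WT cells Cdc20 (−0.25), Racgap1 (−0.27), Prc1 (0.13) and Hmmr (0.29) were not called. Of the 5 interaction calls, those of Cep55 and Prc1 held in each of the 20 fits with a library left out, and the call of Cdc20 was lost with GC corrected (0.55). Leaving out a library changed the count to between 2 (without WT day 2 replicate 5, WT day 5 replicate 3 or WT day 5 replicate 4) and 8 (without Abcb10-null day 2 replicate 2), and leaving out both Abcb10-null day 2 replicates 2 and 5 gave 13.

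Over the whole course, day 0 to day 5, 19 of the 46 (41.3%, against 31.5% of all genes) changed differently: 11 relatively higher and 8 relatively lower in Abcb10-null cells. Cep55 (1.21, SE 0.126, adjusted p = 2.12e-07), Ndc80 (0.81), Ube2c (0.73), Cdc20 (0.66) and Hmmr (0.60) were the most raised. Cdc25b (−1.38, adjusted p = 0.000279), Ccnb2 (−0.86), Aspm (−0.71) and Aurkb (−0.63) were the most reduced. The calls of Cdk1 (0.35), Cdca8 (0.38) and Anln (−0.27) were lost with GC corrected. The median summed level of the erythroid markers went from 2071 to 18965 CPM in WT and from 2248 to 5690 CPM in Abcb10-null libraries over the same days, and its part in the result was not tested.

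**Figure D5:**
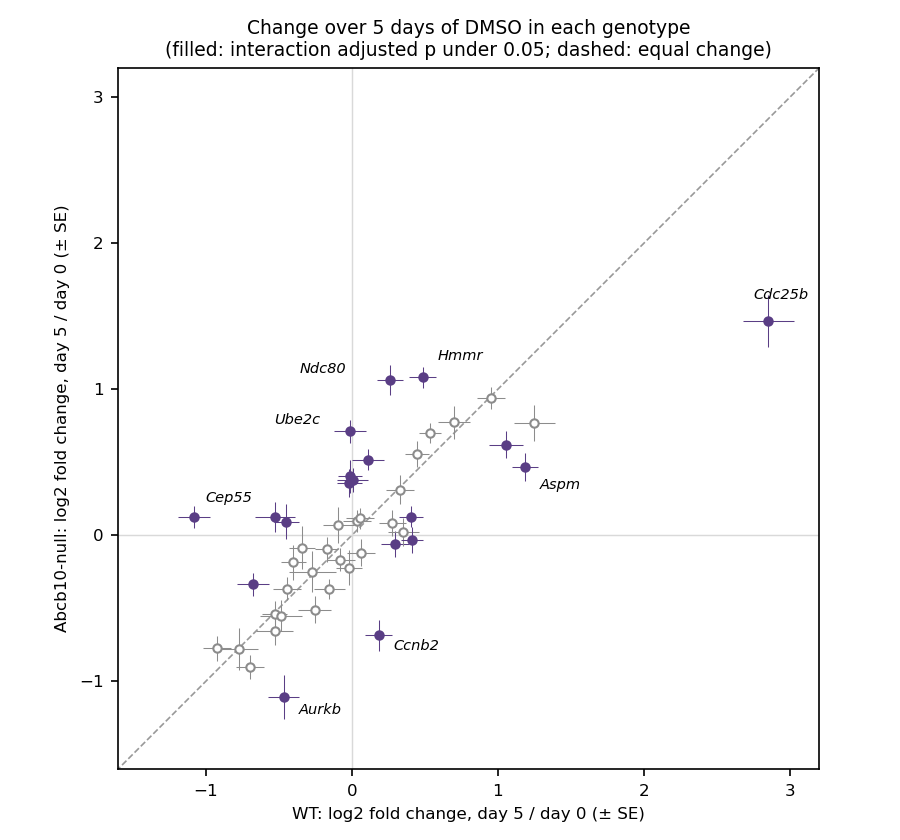
Log2 fold change from day 0 to day 5 in WT (x) and in Abcb10-null cells (y) for the 46 genes, with bars of ±1 standard error and filled symbols where the interaction was called. Both axes use the same scale; Cep55 lies far above the diagonal (−1.08 in WT) and Cdc25b below it (2.85 in WT and 1.47 in Abcb10-null cells).

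The wider mitotic machinery was read from 10 further lists of 156 genes, of which 155 were tested between the genotypes. Of those, 53 (27 higher and 26 lower; 34.2%) were called on day 0, 54 (22 and 32; 34.8%) on day 2 and 68 (26 and 42; 43.9%) on day 5, beside the shares of all genes given above. Their medians were 0.00, −0.05 and −0.12. By direction, 19.7% of all genes were higher and 16.2% lower on day 0, and 14.9% and 16.9% on day 2. On day 5 these shares were 19.8% and 17.8%. Whether single lists lean more than genes in general was not tested. The named examples are the up to 3 genes of each list with the largest called difference on day 5. Results with GC corrected or with a library left out are not given for these lists. On day 2 the median GC slopes of the genotypes differed in sign, and their part in these counts was not tested.

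Cohesin and its regulators stood higher on day 2, when 8 of 15 were called higher and none lower (median 0.41), and on day 0, when 7 were higher and none lower. Stag2, a cohesin subunit, was higher on days 0, 2 and 5 (log2 0.46, 1.07 and 0.85), from 307 ± 44.0 to 557 ± 52.1 CPM on day 5. Its Abcb10-null libraries spread widely on day 2 (361 ± 155 CPM). Pds5a (0.39) was higher on day 5, and Nipbl, the cohesin loader, was lower (−0.73, adjusted p = 0.0418), with a wide WT spread (374 ± 198 CPM). Condensin subunits split, with Ncaph2 (−0.66) and Ncapg (−0.63) lower and Ncaph (0.59) higher on day 5.

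Regulators of G2/M transcription were mostly lower where called, 7 lower and 1 higher of 17 on day 2 and 8 lower and 3 higher on day 5 (median −0.34). Rbl2, which encodes the pocket protein p130 of the DREAM complex, was lower on day 5 (−0.95, adjusted p = 0.00148), and E2f8, a repressor E2F, on days 2 and 5 (−1.5 and −0.94). E2f8 varied widely among WT day 2 libraries (28.1 ± 11.4 CPM). Nfyb, a subunit of the CCAAT-binding NF-Y, was higher on day 5, at 52.7 ± 3.46 and 95.4 ± 8.86 CPM (0.85, adjusted p = 5.03e-05). Centrosome duplication genes were lower in 6 of 13 and higher in 1 on day 5 (median −0.34), with Cep152 (−0.73), Tubg1 (−0.70) and Sass6 (−0.69) as the largest.

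Other spindle proteins were lower in 10 of 25 and higher in 3 on day 2, and lower in 8 and higher in 2 on day 5. Troap, a cytoplasmic spindle protein, was lower on days 2 and 5 (−1.75 and −0.83), as was Kif14, a midzone kinesin (−1.09 and −0.96), while Kif2a, a depolymerizing kinesin, was lower on day 5 (−0.86). The WT spread of Troap was wide on day 2 (32.9 ± 12.5 CPM). Among other cytokinesis proteins, Cit, the citron kinase of the midbody, was lower on all 3 days (−0.46, −2.14 and −0.71). Its WT libraries spread widely on day 2 (75.5 ± 48.2 CPM). Mki67, which encodes the Ki-67 antigen of cycling cells, was lower on day 5 (3238 ± 753 and 2027 ± 214 CPM, −0.69, adjusted p = 0.00484), and Depdc1b was higher (0.59).

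APC/C subunits were called higher in 3 of 15 and lower in 3 on day 5. Anapc16 was higher (63.1 ± 12.4 and 142 ± 21.3 CPM, log2 1.159, adjusted p = 7.65e-05), while the small subunits Anapc11 (−0.85) and Anapc13 (−0.68) were lower. Inner centromere and outer kinetochore genes were lower in 8 of 28 and higher in 5, with Cenpt (−0.88) and Cenpc1 (−0.65) lower and Cenpp (0.68) higher. In the extended checkpoint list Kntc1 (0.72) and Zwilch (0.53), both of the RZZ complex, were higher and Mad2l1bp (−0.62), a MAD2 antagonist, lower. Of 13 mitotic entry and exit regulators, Cdc25a, the S-phase and mitotic entry phosphatase, was the 1 gene called on day 5 (0.77, adjusted p = 0.00237), after being lower on day 0 (−0.46).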

How the data were processed

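Gene-level counts were deposited by the authors as whole numbers for 54532 Ensembl genes in 30 libraries. Per the study's methods and processing notes, reads were trimmed with cutadapt 1.16, aligned to GRCm38 (Ensembl release 94) with STAR 2.6.1b and counted per gene with featureCounts 1.6.3; strand and multimapping settings were not given in the sources used here. Reads that share a gene with an overlapping partner on the other strand may therefore not be separated.

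Starting from these counts, each comparison was fitted with edgeR 4.0.16 in R 4.3.3 (TMM scaling, filterByExpr, quasi-likelihood F test, Benjamini-Hochberg over all genes tested, threshold 0.05). Genotypes were compared on each day (10 libraries), days within each genotype (10 libraries), and the change between days by an interaction (20 libraries), 12 comparisons in all. Fits of the groups compared kept their own spread. The SE given with a log2 fold change is its absolute value divided by the square root of the F statistic. CPM values use TMM over the 30 libraries, and CPM per kb use union exon length from GENCODE release M21 (Ensembl release 96), which lacks 37 of the genes listed. For the GC correction, a lowess curve on GC was fitted in each library to log2 CPM minus the gene's mean over the libraries compared. The curve was entered in the fit as an offset. GC was taken over the bases of all annotated transcripts of a gene. p-values measure the spread between 5 libraries labelled as replicates, which came from the same 2 cell clones. Depth was 9906783 to 20157768 counts per library, so counting error was small for these genes, whose smallest count was 97.

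The 46 genes, the role groups and the other lists were chosen with earlier results of these data known. Planned to be named were the 3 most abundant genes of each role group and the 3 largest and 3 smallest differences of each genotype comparison. Genes called against the majority direction were added to these. Some, such as Ccna2, Bub1, Cdca3, Cdca8 and Mad2l1, are given by fold change or range alone. In comparisons of days and in interactions, genes called against the majority are not all named. Other genes with values in the text were added after seeing them. Another 7 settings, each library left out in turn, and 2 settings added after seeing the data (GC corrected; without Abcb10-null day 2 replicates 2 and 5) were tried. The scripts were checked on simulated counts with known changes: for genotypes on day 2, 51.6% of genes changed by a log2 of 1 and 88.6% of those changed by 2 were recovered. For the interaction from day 0 to 2 these shares were 43.3% and 85.4%. The changed genes were drawn from all genes passing the filter on low counts, so the shares are not specific to the 46. Protein, metabolite and RT-qPCR data of the study were not analysed here. Promoter windows were taken from RefSeq on GRCm38.p6; 7 of the 46 genes had no matching window.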

Additional observations from a re-analysis of the deposited data

Results flagged for a closer look

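Of 276 sets of 5 libraries (46 genes in 6 groups), 15 held 1 library far from the other 4 by Dixon's criterion, close to the 1 in 20 that chance gives. In Abcb10-null day 5 libraries, replicate 4, the shallowest of the 30, was lowest for Ccnb1 (359 CPM, others 427 to 440.1) and Bub1b (244, others 301 to 317), and replicate 1 highest for Aspm (452, others 337 to 355). In WT day 5 libraries, replicate 2 was lowest for Birc5 (69.9, others 85.2 to 89.7) and Pttg1 (67.5, others 88.1 to 94), and replicate 5 highest for Racgap1 (325, others 221 to 232). WT day 5 replicate 5 also had the lowest summed erythroid markers of its group and a GC slope of 0.17, against −0.34 to −0.13 in the other 4.

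On day 2, WT replicate 3 was highest for Ccna2 (676 CPM, others 527 to 561) and Ect2 (110.4, others 87.5 to 93.6) and WT replicate 5 for Kif23 (156, others 137 to 141), while Abcb10-null replicate 2 was highest for Incenp (109.9, others 48.6 to 64.8). On day 0, WT replicate 3 was highest for Birc5 (131, others 118 to 119) and lowest for Cdc20 (214, others 226 to 229). Abcb10-null day 0 replicate 1 was highest for Mad2l1 (210.3, others 188 to 192), and replicate 5 for Espl1 (46, others 34.2 to 37.1) and Prc1 (271, others 243 to 249).

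The change with time differed between the genotypes, by the interaction term, for 12 of the 46 genes from day 0 to 2, 5 from day 2 to 5 and 19 from day 0 to 5.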

How the results depend on the processing

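In the 12 comparisons 225 gene calls were made. Of these, 2 were lost with DESeq2, 4 when genes needed at least 10 counts in every library, 6 without globin, mitochondria-encoded and small RNA genes, 7 with DESeq2's size factors, 30 with GC corrected, 31 in one fit of all 30 libraries and 57 when every gene with at least 1 count was tested. Of all calls under these settings, 1 changed direction: Ect2 in WT, day 5 against day 0, from 0.33 to −0.0235 with GC corrected. Among values that were not called, 2 were called with the other sign, Ccnb2 in Abcb10-null day 2 against day 0 (−0.24 without both day 2 replicates 2 and 5) and Ube2c in WT day 5 against day 0 (0.21 with GC corrected). Testing every gene with at least 1 count adds genes to the p-value adjustment and changes the fitted spread. It gave 13 calls instead of 21 for Abcb10-null against WT on day 5, 10 instead of 17 for Abcb10-null day 5 against day 2, 3 instead of 5 for the interaction from day 2 to 5, and 10 instead of 19 for that from day 0 to 5. One fit of all 30 libraries shares 1 spread among days, and gave 6 instead of 21 for Abcb10-null against WT on day 0 and 11 instead of 5 for the interaction from day 2 to 5. Without both Abcb10-null day 2 replicates 2 and 5 there were 29 instead of 16 for Abcb10-null day 2 against day 0, 24 instead of 12 for the interaction from day 0 to 2, and 13 instead of 5 for that from day 2 to 5; the cause was not tested.

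With each library left out in turn, the counts for Abcb10-null against WT ranged from 16 to 23 on day 0, 9 to 20 on day 2 and 15 to 23 on day 5. For WT they ranged from 22 to 28 (day 2 against 0), 9 to 17 (day 5 against 2) and 29 to 32 (day 5 against 0), and for Abcb10-null cells from 12 to 23, 10 to 20 and 28 to 30. For the interactions they ranged from 9 to 18 (day 0 to 2), 2 to 8 (day 2 to 5) and 14 to 21 (day 0 to 5).

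The groups share replicate numbers, but same-numbered libraries did not deviate together: over 75 pairs the correlation of their deviations had a median of −0.01 (range −0.26 to 0.43) and was over 0.1 in 8. With the replicate number as a block, 27 of the 225 calls were lost and the count for Abcb10-null day 5 against day 2 was 8 instead of 17. The other counts with the block were within 1.5 times those without it. Depth limited none of the 46 genes, whose smallest count was 97.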
